A study of Mus musculus with 27 samples.

Results

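The primed epiblast and Nodal pathway genes followed here are Fgf5, Pou3f1, Otx2, Lef1, Dnmt3a, Dnmt3b, Lefty1, Lefty2, Nodal and Zic2. They were taken by symbol, as every probeset (the set of array probes read as 1 value) annotated to 1 of these genes. This gave 10 probesets of 35556, 1 for each of the 10 genes, and none of the 10 was annotated to a further gene. All 10 passed the filter on dim probesets, a mean log2 value of at least 6 over the 27 arrays. They were described in mouse embryonic stem (ES) cells after RNA interference (RNAi) with small interfering RNAs (siRNAs), knockdown against the control array of the same experiment.

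The study measured RNA from undifferentiated ES cells of 3 lines on 27 arrays, in 12 experiments that each had 1 control array. The targets were MOF (gene symbol Kat8), which acetylates histone H4 at lysine 16, and proteins of complexes that MOF works in. The labels write 1 target as NSL1, which may mean Kansl1, a subunit of the NSL complex, or Nsl1, a kinetochore gene. WD44, a male line from BL6 blastocysts, had 2 MOF arrays and 2 control arrays. PGK12.1, a female line at passage 14 to 18 whose mother was a 129 mouse and whose father came from a cross written (129 X PGK)F1, had 3 MOF, 2 MOF and MSL1, 3 MSL1, 3 NSL1 and 8 control arrays. E14, here a male hybrid of a BL6 mother and a Cast. father, had 2 MOF arrays and 2 control arrays. Every line had been grown with leukemia inhibitory factor on mouse embryonic fibroblast feeders, from which the cells were separated on gelatin before transfection. Cells were exposed to 100 pmol of siRNA over 48 h, and control cells to a siRNA without a target. In PGK12.1 the cells of experiments 1 and 2, knockdown and control alike, were transfected again with 400 pmol over 24 h. Where both MOF and MSL1 were targeted, 50 pmol of siRNA to Msl1 was added. The knockdowns are partial, and the experiments are separate treatments of 1 line each, so that their spread is not that between independently derived lines.

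ES cells of the mouse can be held near the naive state of the early epiblast, and genes of the later, primed epiblast rise as cells leave that state. Nodal is a secreted ligand of the transforming growth factor beta family that signals through activin receptors to SMAD2 and SMAD3, which act on DNA with partners such as FOXH1. Lefty1 and Lefty2 encode secreted antagonists of Nodal and are themselves induced by it, while Otx2, Pou3f1 and Zic2 encode transcription factors of the primed epiblast, Lef1 a nuclear partner of beta-catenin, Fgf5 a growth factor used as a marker of that state, and Dnmt3a and Dnmt3b the enzymes that set new DNA methylation.

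The table of RefSeq promoters (GRCm38.p6) held 6 of the 10 genes in 14 entries: Fgf5, Otx2, Lef1, Dnmt3a, Dnmt3b and Nodal. The 250 bases before each start were searched on both strands for 7 motifs. These were AATNNACA (FOXH1), GTCTAGAC (a SMAD palindrome), CAGAC (a short SMAD motif, which the palindrome does not contain), TAATCC (OTX), CTTTGAT (TCF/LEF), ATTTGCAT (the octamer of POU factors) and CAGCAGG (ZIC). The shares of all 32851 promoters that hold them were 10.9%, 0.167%, 42.2%, 6.25%, 3.21%, 1.6% and 8.44% in that order. The 3 promoters shown belong to genes that were lower after MOF RNAi in WD44, and capitals mark the motif letters found.
Otx2, chr14:48667645-48667894, minus strand: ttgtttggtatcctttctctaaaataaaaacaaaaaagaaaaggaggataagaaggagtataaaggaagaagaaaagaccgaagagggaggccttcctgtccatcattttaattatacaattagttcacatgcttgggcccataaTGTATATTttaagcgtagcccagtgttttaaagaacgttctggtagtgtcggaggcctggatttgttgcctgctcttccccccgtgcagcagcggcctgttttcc
Lef1, chr3:131110047-131110296, plus strand: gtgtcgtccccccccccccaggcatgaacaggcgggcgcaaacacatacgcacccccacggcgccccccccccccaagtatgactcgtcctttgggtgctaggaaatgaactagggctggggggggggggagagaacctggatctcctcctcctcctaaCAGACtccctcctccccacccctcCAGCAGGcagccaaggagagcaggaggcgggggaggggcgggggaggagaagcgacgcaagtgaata
Dnmt3a, chr12:3806910-3807159, plus strand: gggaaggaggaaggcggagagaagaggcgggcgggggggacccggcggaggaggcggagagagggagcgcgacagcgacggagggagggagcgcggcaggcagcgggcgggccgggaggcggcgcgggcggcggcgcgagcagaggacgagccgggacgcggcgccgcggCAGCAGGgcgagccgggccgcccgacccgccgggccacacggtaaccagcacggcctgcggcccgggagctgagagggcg
The Otx2 stretch holds 1 match to the FOXH1 motif, on the other strand, which begins 105 bases before the start. In the Lef1 stretch a short SMAD motif begins 91 bases and a ZIC motif 67 bases before the start. The Dnmt3a stretch holds a ZIC motif that begins 80 bases before its start and is 80.8% G and C, against 42% for Otx2. The promoters of Fgf5, Dnmt3b and Nodal had none of the 7 motifs in these windows. Otx2, Lef1 and Dnmt3a have further starts in the table, and those windows are not shown. Each window shown holds a motif, while each of these genes also has a window with none, and no further Dnmt3a window holds any. These are matches of letters, and no binding was measured.

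Kat8 fell in each line after MOF RNAi, by 0.84 on the log2 scale in WD44, 1.22 in PGK12.1 and 0.68 in E14 (limma, highest adjusted p = 0.00044). The fall in WD44 was smaller than that in PGK12.1 by 0.38 (adjusted p = 0.055) and larger than that in E14 by 0.17 (adjusted p = 0.465). Median log2 values of the arrays, from 6.22 to 7.96, differed in steps from one set of experiments to the next, so that log2 levels of different sets or lines are not on 1 scale. Each difference below is therefore a log2 value of the knockdown minus that of the control of the same experiment, with the experiment as a block in 1 limma fit over all 27 arrays. A gene is said to have risen or fallen where its Benjamini-Hochberg adjusted p was under 0.05 over 16283 probesets. Errors are standard errors (SE) of that fit, which has 9 residual degrees of freedom. Each knockdown group has 2 or 3 arrays, and their number limits the precision.

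MOF RNAi in WD44 cells lowered 8 of the 10 genes and raised none. The fall reached both Lefty genes, 4 transcription factor genes (Lef1, Pou3f1, Zic2 and Otx2), Fgf5 and Dnmt3a, and their levels were 59.7% to 82.6% of control. Of all probesets tested, 12.4% were called in this comparison, 7.98% lower and 4.38% higher. The median difference of the 10 genes was -0.39, against -0.02 over all probesets tested. In both WD44 experiments 9 of the 10 genes lay below their control and none above it, against 38.7% and 29.2% of all probesets tested. Without the experiment as a block, 1 of these 8 calls held (Lefty2), where 0.608% of all probesets were called, and with any 1 of the 4 WD44 arrays left out, 3 held (Lefty2, Lefty1 and Lef1). The SE without the block also holds spread between PGK12.1 array sets, so calls lost there need not reflect spread among the WD44 arrays.

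The antagonists of Nodal gave the 2 largest differences among the 10 genes in WD44. Lefty2 had log2 values of 8.50 and 8.82 in the MOF arrays of WD44, against 9.32 and 9.49 in its control arrays. Both knockdown arrays lay below both controls, and the fall was 0.74 ± 0.07 (SE, n = 2 experiments, limma adjusted p = 8.81e-05). Lefty1 had 9.28 and 9.42 in the MOF arrays of WD44, against 9.86 and 10.09 in its controls, again without overlap, and fell by 0.62 ± 0.10 (limma adjusted p = 0.00216). In PGK12.1, Lefty2 had 8.88, 8.80 and 10.36 after MOF RNAi in experiments 1, 2 and 3, against 9.16, 9.24 and 10.93 in the controls of the same experiments. It was lower in each of these experiments and fell by 0.43 ± 0.06, to 74.2% of control (limma adjusted p = 0.000114). Lefty1 had 8.32, 8.31 and 9.89 in those MOF arrays, against 8.79, 8.70 and 10.09 in the controls, and fell by 0.35 ± 0.08 (limma adjusted p = 0.00535, and 0.245 without the block). In E14, Lefty2 had 9.83 and 9.86 after MOF RNAi, against 10.15 and 10.21 in the controls. The groups did not overlap, and Lefty2 fell by 0.34 ± 0.07, the 1 call among the 10 genes in E14 (limma adjusted p = 0.0101, and 0.124 without the block). There 8.33% of all probesets were called, 4.73% lower and 3.6% higher, and without the block 0.669% were called. The E14 call was lost with any 1 of its 4 arrays left out. Lefty1 differed by -0.07 ± 0.10 in E14 (limma adjusted p = 0.737). The 2 Lefty genes are neighbouring and near-identical copies on chromosome 1, so how far their probesets separate them is uncertain.

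Nodal itself was not called in WD44. It had 11.27 and 11.23 after MOF RNAi in WD44, against 11.10 and 11.27 in the controls, and these groups overlapped. The difference was 0.07 ± 0.06 (limma adjusted p = 0.531). In PGK12.1 it had 9.28, 9.37 and 10.12 after MOF RNAi, against 9.18, 9.16 and 9.82 in the controls. It was higher in each experiment and rose by 0.20 ± 0.05 (limma adjusted p = 0.0112, and 0.0692 without the block). In E14 it had 9.81 and 9.93 after MOF RNAi, against 9.58 and 9.73 in the controls, a difference of 0.21 ± 0.06 (limma adjusted p = 0.0507).

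**Figure D1:**
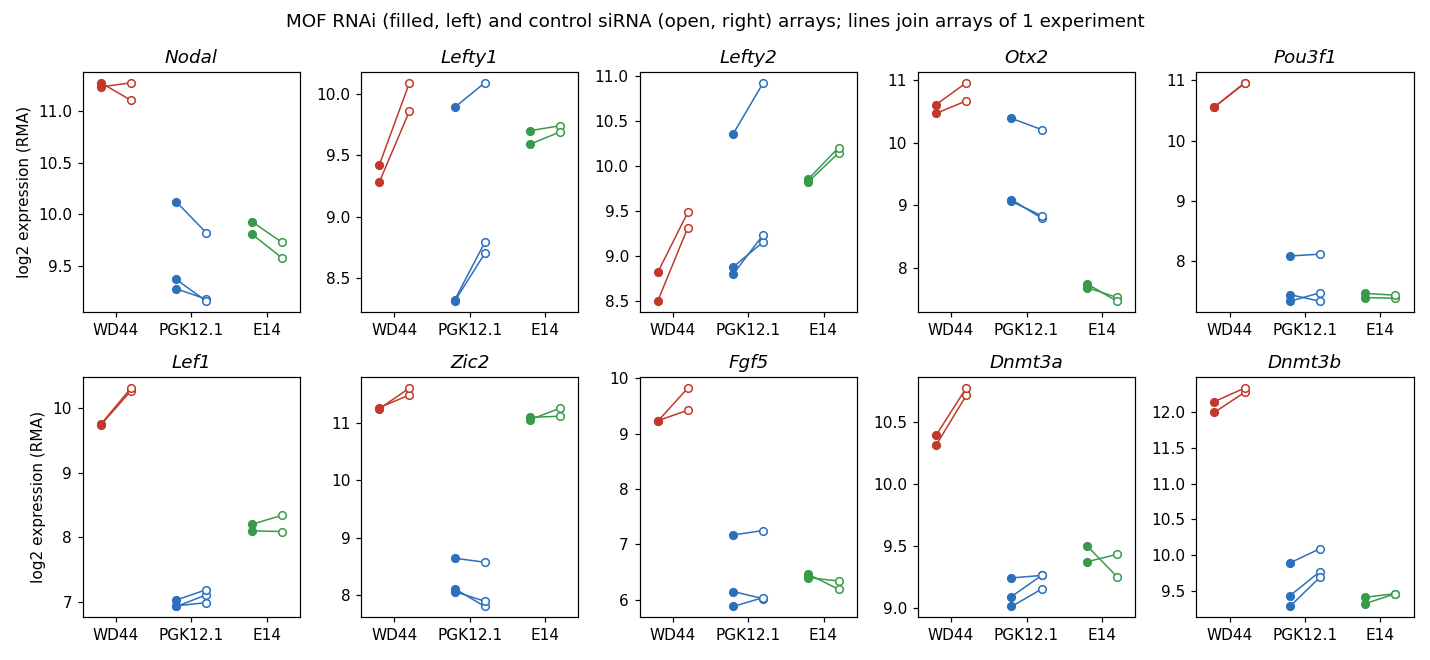
Log2 expression of each gene (vertical axes, 1 scale per panel) in the MOF arrays (filled, left) and control arrays (open, right) of WD44, PGK12.1 and E14, with a line for each experiment. In WD44 the line of each gene but Nodal goes up to the control in both experiments, and levels of different lines are not on 1 scale.

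Among the transcription factor genes, Otx2 and Zic2 were lower after MOF RNAi in WD44 and higher in PGK12.1. Otx2 had 10.47 and 10.61 after MOF RNAi in WD44, against 10.67 and 10.96 in the controls, and fell by 0.28 ± 0.09 (limma adjusted p = 0.0489, and 0.524 without the block). In PGK12.1 it had 9.09, 9.06 and 10.39 after MOF RNAi, against 8.79, 8.83 and 10.21 in the controls. It rose there by 0.24 ± 0.07 (limma adjusted p = 0.0239, and 0.35 without the block). In E14 it had 7.68 and 7.74 in the MOF arrays, against 7.52 and 7.46 in the controls, a difference of 0.22 ± 0.09 that was not called (limma adjusted p = 0.131). Otx2 was thus higher than control in all 5 MOF experiments of PGK12.1 and E14 and lower in both of WD44.

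Zic2 had 11.26 and 11.24 after MOF RNAi in WD44, against 11.48 and 11.60 in the controls, and fell by 0.29 ± 0.07 (limma adjusted p = 0.0206, and 0.573 without the block). In PGK12.1 it had 8.11, 8.06 and 8.64 in the MOF arrays, against 7.80, 7.89 and 8.57 in the controls, and rose by 0.18 ± 0.06 (limma adjusted p = 0.0354, and 0.596 without the block). The rise was 0.31, 0.17 and 0.07 in experiments 1, 2 and 3, so that experiment 3, the one with a single round of RNAi, showed least. In E14 Zic2 had 11.09 and 11.05 after MOF RNAi, against 11.11 and 11.25 in the controls, a difference of -0.11 ± 0.07 (limma adjusted p = 0.393).

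Lef1 and Pou3f1 differed little between their WD44 replicates. Lef1 had 9.74 and 9.75 after MOF RNAi in WD44, against 10.27 and 10.31 in the controls, and fell by 0.55 ± 0.07, to 68.5% of control (limma adjusted p = 0.000549, and 0.132 without the block). Pou3f1 had 10.56 in both MOF arrays of WD44, against 10.95 and 10.96 in the controls, and fell by 0.39 ± 0.07 (limma adjusted p = 0.00506, and 0.144 without the block). Neither was called in the other lines. Lef1 differed by -0.13 ± 0.05 in PGK12.1 and -0.07 ± 0.07 in E14 (limma adjusted p = 0.0957 and 0.615), and Pou3f1 by -0.02 ± 0.06 in PGK12.1 and 0.02 ± 0.07 in E14 (0.844 and 0.913).

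Fgf5 had 9.23 and 9.22 after MOF RNAi in WD44, against 9.42 and 9.82 in the controls. The MOF arrays were close and the controls apart. Fgf5 fell by 0.39 ± 0.11 (limma adjusted p = 0.0274, and 0.272 without the block). In PGK12.1 it had 6.15, 5.88 and 7.17 after MOF RNAi, against 6.02, 6.04 and 7.25 in the controls, and in E14 6.40 and 6.46, against 6.34 and 6.19. These values are near the filter of 6, and the differences of -0.04 ± 0.09 and 0.17 ± 0.11 were not called (limma adjusted p = 0.8 and 0.377).

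Of the 2 de novo methyltransferase genes, Dnmt3a was called in WD44 and Dnmt3b in PGK12.1, and both lay below control in every MOF experiment of these lines. Dnmt3a had 10.31 and 10.39 after MOF RNAi in WD44, against 10.71 and 10.77 in the controls, and fell by 0.39 ± 0.08 (limma adjusted p = 0.0073, and 0.18 without the block). Its differences were -0.11 ± 0.06 in PGK12.1 and 0.10 ± 0.08 in E14 (limma adjusted p = 0.229 and 0.502). Dnmt3b had 9.43, 9.28 and 9.89 after MOF RNAi in PGK12.1, against 9.77, 9.69 and 10.09 in the controls. It was lower in each experiment and fell by 0.32 ± 0.07, to 80.3% of control (limma adjusted p = 0.00409). In WD44 Dnmt3b had 12 and 12.15 in the MOF arrays, against 12.28 and 12.34 in the controls, a difference of -0.23 ± 0.08 that was not called (limma adjusted p = 0.0784).

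In PGK12.1 as a whole, MOF RNAi thus changed 6 of the 10 genes, with Lefty2, Lefty1 and Dnmt3b lower and Otx2, Nodal and Zic2 higher. In that comparison 23.4% of all probesets were called, 13.9% lower and 9.49% higher. In all 3 experiments 5 of the 10 genes lay below their control and 3 above it, against 25.5% and 22.3% of all probesets. In E14 4 genes lay below their control in both experiments and 4 above it, against 32.1% and 32.7%. Without the block 2 of the 6 calls in PGK12.1 held, Lefty2 and Dnmt3b, where 7.68% of all probesets were called. That fit keeps a term for the second round of RNAi, which sets experiments 1 and 2 apart from experiment 3. With each array centred on its median, 2 genes were higher and 4 lower. Experiment 3 alone, with 1 round of RNAi as in WD44 and E14, gave 2 calls, Lefty2 at -0.57 and Nodal at 0.30. Leaving out either array of experiment 2 left the 3 falls and none of the 3 rises, and leaving out an array of experiment 1 or 3 left 4 calls, the 3 falls among them.

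**Figure D2:**
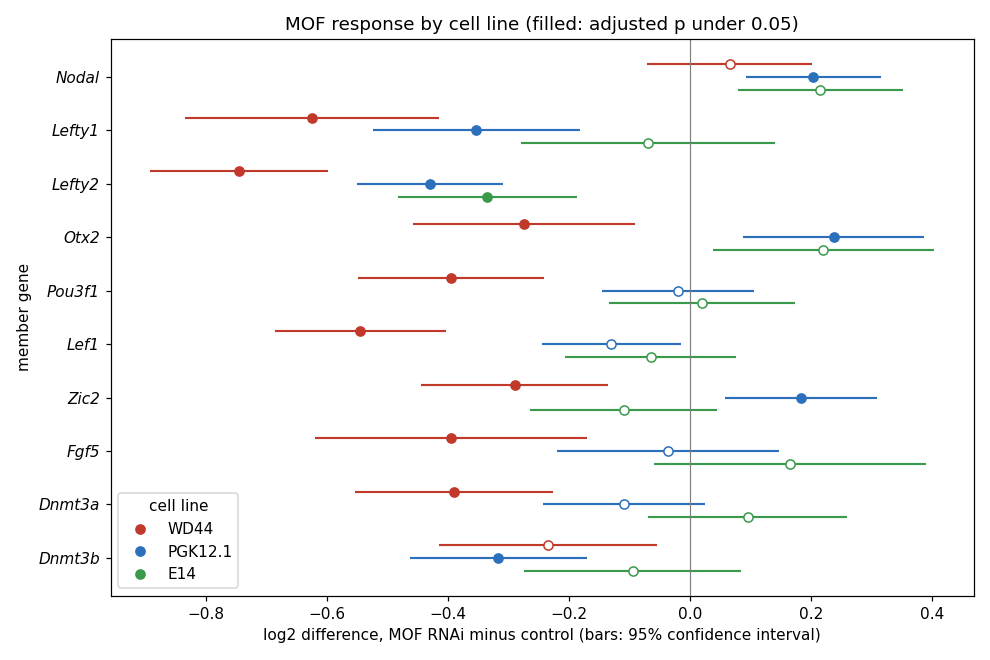
Log2 difference of MOF RNAi minus control for each gene in WD44, PGK12.1 and E14 (points, filled where the adjusted p is under 0.05, with the 95% confidence interval as bars). In WD44 8 genes lie below 0 and are filled, and Otx2 and Zic2 lie on opposite sides of 0 in WD44 and PGK12.1.

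The difference between lines was tested on the MOF responses themselves. The response in WD44 was lower than in PGK12.1 for 4 of the 10 genes and higher for none, where 2.21% of all probesets were called, 1.31% lower and 0.903% higher. The differences, WD44 minus PGK12.1, were -0.51 ± 0.11 for Otx2 (limma adjusted p = 0.0294), -0.47 ± 0.09 for Zic2 (0.0205), -0.41 ± 0.09 for Lef1 (0.0231) and -0.38 ± 0.09 for Pou3f1 (0.0497). For Otx2 and Zic2 the 2 responses had opposite signs and each was called. For Lef1 and Pou3f1 the call lay in WD44. Lefty2 differed between these lines by -0.32 ± 0.09 and Lefty1 by -0.27 ± 0.13, neither of which was called (limma adjusted p = 0.0824 and 0.274). None of the 4 calls held without the block, with a WD44 array left out, or against PGK12.1 experiment 3 alone, where Otx2 stood at -0.46 and Zic2 at -0.36. Leaving out either array of PGK12.1 experiment 1 left 2 of the 4 calls, and of experiment 2, 1 call. Without the block 0.0983% of all probesets were called.

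Against E14, the WD44 response was lower for 2 of the 10 genes, where 1.39% of all probesets were called, 0.848% lower and 0.54% higher. WD44 minus E14 was -0.48 ± 0.09 for Lef1 (limma adjusted p = 0.0279) and -0.48 ± 0.11 for Dnmt3a (0.0425). A further 5 genes had differences of -0.41 to -0.56 with adjusted p from 0.0529 to 0.0772 (Lefty2, Otx2, Pou3f1, Lefty1 and Fgf5). Neither call held without the block, where 0.0307% of all probesets were called, and with 1 array left out at most 1 of the 10 genes was called. With each array centred on its median, 7 of the 10 genes were called lower in WD44 than in E14. E14 minus PGK12.1 gave 0 calls among the 10 genes by limma, with 2 at an unadjusted p under 0.05, where 2.5% of all probesets were called, 1.31% higher and 1.19% lower, and 0.0676% without the block. The widest of those differences were -0.29 ± 0.09 for Zic2 and 0.28 ± 0.13 for Lefty1. Line, strain, sex and array set cannot be told apart in these comparisons. Those with PGK12.1 also differ in the second round of RNAi, which only its experiments 1 and 2 had.

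The other knockdowns in PGK12.1 changed no more of the 10 genes than MOF RNAi did. With MOF and MSL1 targeted together, Kat8 fell by 0.87 and Msl1 by 0.46. Of the 10 genes, 1 rose and none fell, where 6.44% of all probesets were called, 3.24% higher and 3.19% lower. This was Otx2, which had 9.45 and 9.52 in the arrays with both targets, against 8.94 and 8.88 in the controls of experiments D and E. It rose by 0.55 ± 0.08, to 146% of control (limma adjusted p = 0.0022, and 0.156 without the block). Without the block Nodal was called in its place, at 0.24 (limma adjusted p = 0.0358), where 9.9% of all probesets were called. That fit uses the controls of experiments A to E together. Their Nodal values were 10.51, 10.48 and 10.59 in A to C and 10.69 and 10.65 in D and E. With the block Nodal differed by 0.15. Lefty2 had 10.80 and 10.82 in these arrays, against 11.06 and 10.93 in the controls, a difference of -0.18 ± 0.07 (limma adjusted p = 0.121), and Lefty1 differed by -0.28 ± 0.09 (0.094).

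MSL1 RNAi alone gave 0 calls among the 10 genes by limma, with 3 at an unadjusted p under 0.05, where 0.184% of all probesets were called, 0.0983% higher and 0.086% lower, and 0.0614% without the block. Msl1 had fallen by 0.97. The widest difference was in Otx2, which had 9.27, 9.04 and 9.02 in the MSL1 arrays of experiments A, B and C, against 9.38, 9.58 and 9.24 in the controls. That was -0.27 ± 0.07 (limma adjusted p = 0.129), of which experiment B carried -0.54. Otx2 therefore lay below its control with MSL1 targeted alone and above it with MOF targeted, alone or with MSL1, in this line.

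NSL1 RNAi changed 6 of the 10 genes, in both directions, where 39.8% of all probesets were called, 18.4% higher and 21.4% lower. Among them Lefty2, Dnmt3b, Nodal and Zic2 were called in the same direction as after MOF RNAi in this line, where 23.4% of all probesets were called. The share of all probesets called in the same direction in both was not counted, so these shared calls have no background beside them. Kansl1 fell by 0.24 on its probeset of the higher mean, and its second probeset rose by 0.50. Nsl1 differed by 0.16 (limma adjusted p = 0.0502). Lef1 had the widest rise of the 10 genes, with 7.73, 7.90 and 7.96 in the NSL1 arrays of experiments C, D and E, against 7.31, 7.30 and 7.34 in the controls. The groups did not overlap, and Lef1 rose by 0.55 ± 0.05, to 146% of control (limma adjusted p = 1.27e-06). Zic2 had 10.06, 10.68 and 10.75 in the NSL1 arrays, against 9.76, 10.38 and 10.28 in the controls, and rose by 0.35 ± 0.06 (limma adjusted p = 0.000172). Nodal had 10.88, 11.01 and 10.94, against 10.59, 10.69 and 10.65 in the controls, without overlap, and rose by 0.31 ± 0.05 (limma adjusted p = 0.000156).

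Lefty2 fell after NSL1 RNAi by 0.22 ± 0.05, with 10.82, 10.85 and 10.69 in the NSL1 arrays and 11.03, 11.06 and 10.93 in the controls (limma adjusted p = 0.00444). Dnmt3a fell by 0.18 ± 0.06 and Dnmt3b by 0.18 ± 0.07 (limma adjusted p = 0.0242 and 0.0404). Dnmt3b differed by -0.38, -0.15 and 0.04 in experiments C, D and E, so that experiment C carried its fall. The Dnmt3a call was lost without the block (limma adjusted p = 0.192) and the other 5 held, where 28.3% of all probesets were called. With 1 array left out 4 to 6 calls held, each time with Lef1, Zic2, Nodal and Lefty2. Nodal and Lefty2 thus moved in opposite directions under MOF and NSL1 RNAi alike in PGK12.1, and Lefty1 did not follow Lefty2 under NSL1 RNAi, where it differed by 0.14 ± 0.08 (limma adjusted p = 0.162).

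**Figure D3:**
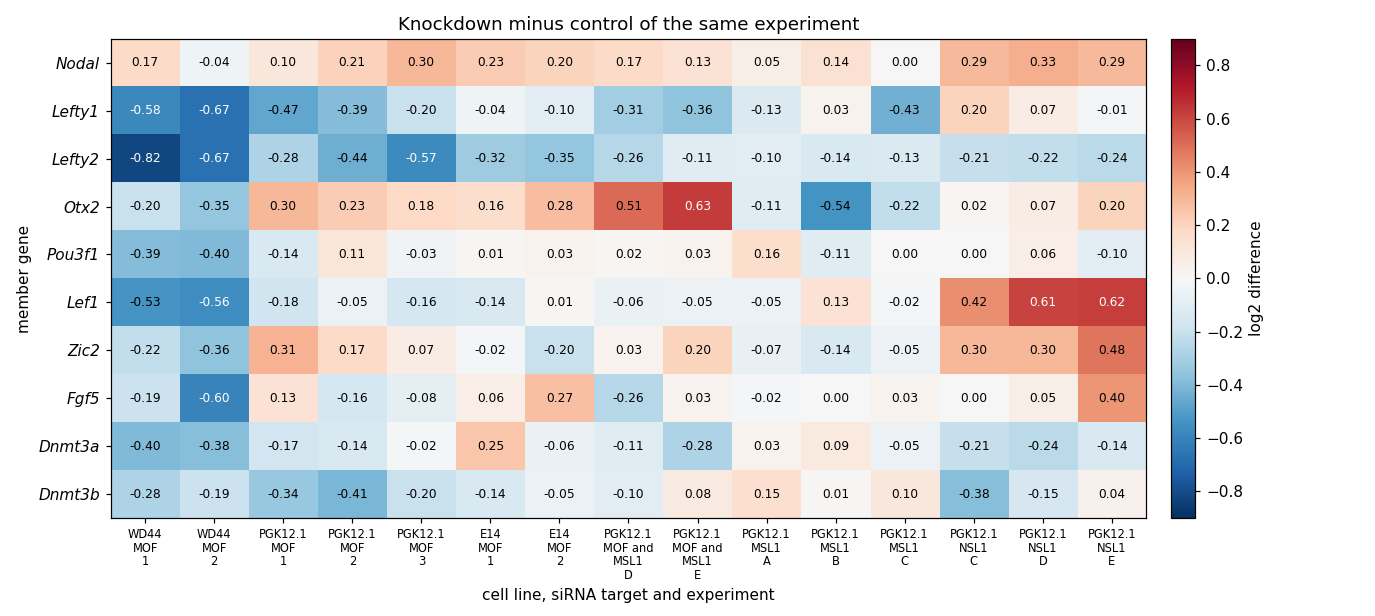
Log2 difference of each knockdown array minus the control of its experiment (columns, by cell line, siRNA target and experiment) for the 10 genes (rows), with blue below and red above 0. The WD44 columns are blue but for Nodal, Otx2 is reddest with both MOF and MSL1 targeted, and Lef1 is reddest with NSL1 targeted.

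The control arrays of the lines were also compared. Because levels of different sets are not on 1 scale, each control array's value was placed as a percentile among that array's own probesets, as a description with no test. Percentiles still differed between sets within PGK12.1. Dnmt3a stood at 86.8 in the control of experiment 1 and 66.3 in that of C, and Zic2 at 72.4 in experiment 1 and 87.8 in D. Line, strain, sex and array set cannot be told apart in the levels below, and the PGK12.1 controls of experiments 1 and 2 had a second transfection. The 2 WD44 controls lay above all 10 other controls for Fgf5, Pou3f1, Lef1 and Dnmt3b, which is 4 of the 10 genes, against 17.6% of 13989 genes. They lay below all 10 for Lefty1 and Lefty2, which is 2 of the 10, against 19.2% of the genes. Fgf5 stood at the 70.2 and 75.2 percentiles in WD44, against a range of 37.1 to 61 with a median of 39.5 over the 8 PGK12.1 controls and 40.8 and 42.9 in E14. The highest PGK12.1 value belongs to experiment 3.

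Pou3f1 stood at the 86.5 and 86.7 percentiles in the WD44 controls, against 60.6 to 71.1 (median 62.2) in PGK12.1 and 58.6 and 59.2 in E14. Dnmt3b stood at 95.1 and 95.5 in WD44, against 79.3 to 90.2 (median 81.4) in PGK12.1 and 79.7 and 79.9 in E14. Lefty2 stood at 68.9 and 71.3 in WD44, against 86 to 93.4 (median 92.1) in PGK12.1 and 85.9 and 86.1 in E14. The 2 of 10 genes that stood lowest in WD44 are a share near that of all genes. The order of the lines for Otx2 was WD44 (median 85.4), PGK12.1 (79.9) and E14 (59.7), and the PGK12.1 range of 75.7 to 89.5 took in WD44 but not E14. For Zic2 it was E14 (93), WD44 (91) and PGK12.1 (82.8). For Nodal, WD44 (88.5) and PGK12.1 (88.5) did not differ beyond the spread of PGK12.1, and both stood above E14 (81.6).

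Further genes of these states were placed in the same way. Over all genes compared, 17.6% stood higher in WD44 than in every other control and 19.2% lower. Of 20 further primed epiblast genes, 11 stood higher in this way and none lower, among them Cldn6, Pim2, Dusp6, Spry4 and Utf1. Of 18 naive pluripotency genes, 10 stood lower in WD44 and none higher, among them Zfp42, Klf2, Klf4, Tbx3, Prdm14 and Tcl1. The naive genes remained in the upper part of the array in WD44, with a median percentile of 83.9, against 92.4 in PGK12.1 and 90.3 in E14. The primed genes had a median of 81.6 in WD44, against 70.5 in PGK12.1 and 65.9 in E14.

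**Figure D4:**
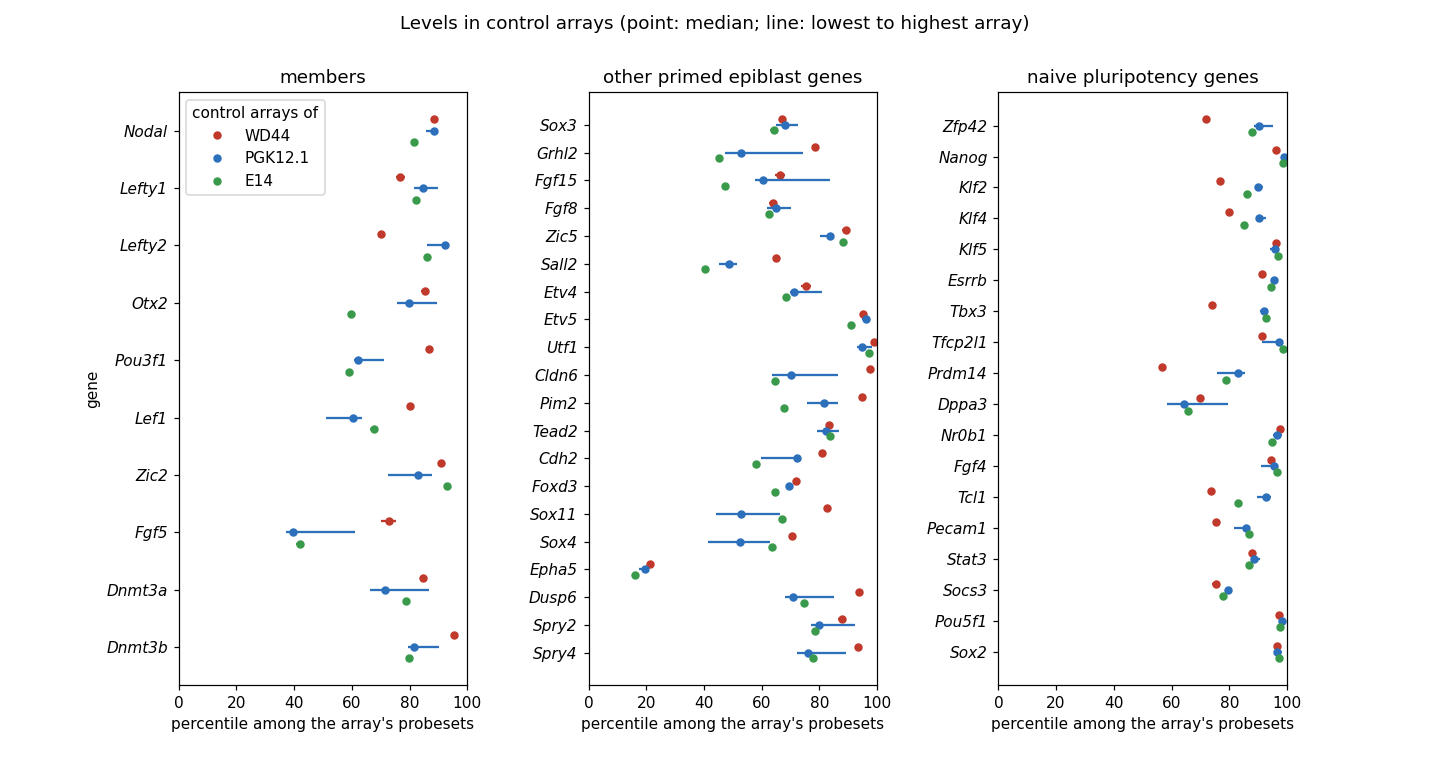
Percentile of each gene among the probesets of its array in the control arrays of WD44 (2), PGK12.1 (8) and E14 (2), as the median (point) and the lowest to highest array (line). WD44 stands to the right for 11 of 20 other primed epiblast genes and to the left for 10 of 18 naive pluripotency genes. Of 13989 genes compared, it stands to the right for 17.6% and to the left for 19.2%.

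After MOF RNAi in WD44, 4 of 19 other primed epiblast genes tested fell and none rose, against 7.98% of all probesets lower. These were Pim2 (-0.47), Zic5 (-0.46), Dusp6 (-0.24) and Fgf15 (-0.26), and the median of the list was -0.10. Pim2 encodes a kinase, Zic5 a relative of Zic2, Dusp6 a phosphatase of the ERK pathway that FGF signals induce, and Fgf15 a growth factor. Of the naive genes, 2 of 18 rose (Tbx3 by 0.35 and Klf2 by 0.20) and none fell, against 4.38% of all probesets higher. Without the block 1 gene of the primed list fell and no naive gene rose. Of 14 Wnt and TCF genes and 12 further DNA methylation genes tested, none was called in WD44. In PGK12.1, 5 of 19 primed genes fell after MOF RNAi and none rose, against 13.9% of all probesets lower. These were Utf1, Fgf15, Dusp6, Spry4 and Etv4 (from -0.28 to -0.16), none of which held without the block. The median of that list was 0.04, so the 5 falls do not describe the list as a whole.

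A few other genes of the Nodal pathway were called in each line after MOF RNAi. Of 16 further pathway genes tested, 1 rose and 1 fell in WD44: Dand5 (0.28), which encodes another Nodal antagonist, and Acvr2b (-0.31), which encodes an activin receptor. This share is near the 12.4% called among all probesets. The Acvr2b response was also lower in WD44 than in PGK12.1 (-0.40, limma adjusted p = 0.0228) and E14 (-0.41, 0.042). Without the block 0 of the 16 were called in WD44 and 0 in either of these differences. In PGK12.1 the signal transducer gene Smad3 (0.27) and the convertase gene Pcsk6 (0.15) rose and the Nodal co-receptor gene Tdgf1 (-0.17) fell. That was 2 of the 16 higher and 1 lower, where 9.49% and 13.9% of all probesets were called in those directions. In E14 Foxh1 (0.38) rose, and the convertase genes Furin (-0.31) and Pcsk6 (-0.25) fell. There 1 of the 16 was higher and 2 lower, against 3.6% and 4.73% of all probesets. Without the block 1 rose and 1 fell in PGK12.1, and 1 rose in E14, where 7.68% and 0.669% of all probesets were called. The medians of this list were 0.03 in WD44, 0.04 in PGK12.1 and -0.01 in E14, close to those of all probesets. Of 14 targets and regulators of the wider family, 4 rose and 3 fell in PGK12.1, where 23.4% of all probesets were called. In E14 1 rose and 2 fell, where 8.33% were called. Id2 rose in PGK12.1 (0.42) and E14 (0.31), and Bmp4 (-0.39 and -0.38) and Smad7 (-0.18 and -0.29) fell in both. Without the block 1 of the 14 rose and 2 fell in PGK12.1, and none was called in E14. In WD44 1 of the 14 was called, Skil (-0.32).

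After NSL1 RNAi, Wnt and TCF genes were called in 1 direction. Of 14 Wnt and TCF genes tested, 8 rose and none fell, against 18.4% of all probesets higher, with a list median of 0.24 against -0.01 over all. They included Sp5 (0.55) and Axin2 (0.34), known targets of beta-catenin, Tcf7l2 (0.51), a relative of Lef1, and Znrf3 (0.38), which encodes a ligase that removes Wnt receptors. Without the block 7 rose and none fell. Of 16 Nodal pathway genes 5 rose and 2 fell, among them the activin antagonist gene Fst (0.41), Smad3 (0.28), Foxh1 (0.28) and Tdgf1 (-0.19), a share near the 39.8% called among all probesets. Of 19 primed genes 6 rose and 4 fell, among them Sox11 (0.80), Cdh2 (0.57), Sox4 (0.40) and Tead2 (-0.43). Of 10 mesendoderm genes 4 rose and 1 fell, among them Eomes (0.52), Cxcr4 (0.43), Hhex (0.29) and Mixl1 (-0.39). Without the block 3 Nodal pathway genes rose and 2 fell, 3 primed genes rose and 3 fell, and 1 mesendoderm gene rose and 1 fell.

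Markers of other cells also moved in WD44. Of 14 fibroblast genes, which mark feeder cells, 13 had a probeset and 8 passed the filter. Of these 8, 5 rose after MOF RNAi and none fell, where 4.38% of all probesets were called higher and 7.98% lower. Acta2 rose by 0.97, Col1a1 by 0.38, Col3a1 and Col1a2 by 0.30 each and Col6a1 by 0.23. The mean log2 value over the 13 genes was 7.93 and 7.93 in the MOF arrays of WD44, against 7.72 and 7.76 in its controls. This mean differed by 0.21 and 0.17 in WD44, 0.05, 0.01 and 0.13 in PGK12.1, and 0.05 and 0.07 in E14. In PGK12.1 none of the 8 rose and 1 fell, and in E14 1 rose (Acta2, 0.55). Over all probesets 9.49% rose and 13.9% fell in PGK12.1, and 3.6% rose and 4.73% fell in E14. Among 10 trophectoderm genes tested, Krt18 (0.45) and Hand1 (0.36) rose in WD44, and among 10 primitive endoderm genes 3 rose (Col4a2, Sparc and Col4a1) and 1 fell (Dab2). In PGK12.1 the trophectoderm genes Gata3 (0.28) and Tfap2c (0.16) and the primitive endoderm gene Sparc (0.18) rose, and none of these lists fell. In E14 no trophectoderm gene was called, and 1 primitive endoderm gene fell. The mean over 11 trophectoderm genes differed by 0.18 and 0.20 in WD44, 0.13, 0.14 and 0.17 in PGK12.1, and 0.11 and 0.02 in E14. The lists hold collagen and actin genes that cells other than fibroblasts express. In the controls, 3 of the 13 fibroblast genes stood higher in WD44 than in every other control (Acta2, Dcn and S100a4) and 1 lower (Col3a1). Median percentiles of Acta2 were 90.2 in WD44, 56.7 in PGK12.1 and 53.3 in E14, and those of Dcn were 58.2, 24.8 and 21.1 in the same order. S100a4 stood at 34.5 in WD44, 26.2 in PGK12.1 and 22.8 in E14. The lowest of the list in WD44 were Lum at 6.2 and Fap at 7.6. Without the block 0 of the 5 fibroblast calls held. The part of these cells in the fall of the primed genes was not tested, and in bulk RNA fewer cells of a type and less RNA per cell cannot be told apart.

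Among themselves the 10 genes were loosely tied over the 15 knockdown differences, of which those in experiments C, D and E share controls. Pearson's r between pairs ran from -0.33 (Dnmt3b and Nodal) to 0.82 (Lef1 and Lefty1), and was 0.55 for Lefty1 with Lefty2 and 0.00 for Lefty2 with Nodal. Over 13988 other genes, the closest to Lef1 were Gprc5b (0.95), Ccnjl (0.95) and Camkv (0.94). The closest to Lefty2 were Zcchc3 (0.94), Emc2 (0.91) and Actr6 (0.90), and the closest to Zic2 were Crebzf (0.92), Mdm2 (0.92) and Nf2 (0.92). For Nodal they were Tlcd1, Ell and Btg2 (0.86 to 0.87), and for Otx2 Fam160b1, Wdr76 and Cyb5d1 (0.86 to 0.87). None of these neighbours was another of the 10 genes. These correlations are descriptions and were not tested.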

How the data were processed

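The 27 ES cell samples were hybridized to Affymetrix arrays. The values are log2 expression values that the authors deposited, 1 per probeset and array, made with Affymetrix Expression Console and RMA per the submitters' processing notes. Their versions and the genome build are not given in the sources used here. RMA quantile-normalizes the arrays it is given, and the array medians show that the sets were not brought to 1 scale together.

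Names come from the platform annotation, and current symbols were looked up in RefSeq (GRCm38.p6) by gene ID, where 21698 of the 21789 probesets with 1 symbol matched. Probesets that had a symbol and averaged 6 or more on the log2 scale entered limma 3.58.1 in R 4.3.3, which left 16283. The 12 experiments were a fixed block with 1 coefficient for each of the 6 knockdowns, and the 3 differences between lines were contrasts of the MOF coefficients. Calls were made at a Benjamini-Hochberg adjusted p under 0.05, two-sided, over all 16283. The fit without the block has 16 residual degrees of freedom. For MSL1, NSL1 and MOF with MSL1 it pools the controls of experiments A to E. Their array medians were 6.76 to 6.77 in A to C and 6.39 to 6.42 in D and E, so it mixes levels of different sets. Its residual variance is 1 value per probeset over all arrays. Spread between these sets therefore also enters the SE for MOF in each line and for the line differences. Pou3f1 in WD44 had 10.56 in both MOF arrays and 10.95 and 10.96 in the controls. Its SE was 0.07 with the block and 0.12 without it, and the same in E14. How far the array sets account for calls lost without the block was not tested. Gene lists took the probeset with the highest mean per gene and are described by counts and medians, with no test of a list.

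The labels name each number or letter as 1 experiment, which is where the pairing comes from. Deviations from the group means correlated between a knockdown array and its own control at -0.10 to 0.87, and were 0.01 in WD44 and 0.13 in E14. This check did not settle the pairing. The 10 genes, the lists and the tests were chosen with earlier results of these data known. The genes named from a list are those called, up to 4 per list and comparison with the smallest p, and each gene's neighbours are the 3 with the highest r. Fibroblast, trophectoderm and primitive endoderm genes and the genes named from the control levels were named after their values were seen. So were the fifth primed gene and Smad7 in PGK12.1 and the second Kansl1 probeset. No 2 arrays held identical values, and arrays of a group correlated at 0.981 to 0.996. The fit was tested on simulated data with known changes.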

Additional observations from a re-analysis of the deposited data

Results flagged for a closer look

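A difference of the MOF response between lines, tested as a contrast within the fit, was found for 6 pairs of gene and lines. WD44 minus PGK12.1 was -0.51 for Otx2, -0.47 for Zic2, -0.41 for Lef1 and -0.38 for Pou3f1. WD44 minus E14 was -0.48 for Lef1 and -0.48 for Dnmt3a. The WD44 responses behind them were -0.28 for Otx2, -0.29 for Zic2, -0.55 for Lef1, -0.39 for Pou3f1 and -0.39 for Dnmt3a. The PGK12.1 responses were 0.24 for Otx2, 0.18 for Zic2, -0.13 for Lef1 and -0.02 for Pou3f1, and the E14 responses were -0.07 for Lef1 and 0.10 for Dnmt3a. Kat8 fell by 0.84 in WD44, 1.22 in PGK12.1 and 0.68 in E14, and its part in these differences was not tested. No gene had a control array standing apart in the group of 5 controls of experiments A to E, over 10 such tests, of which chance alone would flag about 1 in 20. These controls come from sets on different scales, which can hide a lone array, and the smaller groups were not tested.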

How the results depend on the processing

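No value of a called gene changed direction under any alternative. Of 317 values under alternatives that keep all arrays or leave out whole experiments, 240 stayed past the threshold and 77 did not, and of 168 values with 1 array left out, 79 stayed and 89 did not. With no replicate block the 10 genes gave 2 calls for MOF in PGK12.1 (6 with it), 1 in WD44 (8), 0 in E14 (1), 0 for WD44 minus PGK12.1 (4) and 0 for WD44 minus E14 (2), and over all probesets 99 calls in WD44 against 2013. For NSL1, MSL1 and MOF with MSL1 the counts were 5, 0 and 1 without it and 6, 0 and 1 with it, though the 1 gene differed. The block as a random effect gave 3 calls for MOF with MSL1, 2 in E14 and 0 for WD44 minus PGK12.1. With only a comparison's own experiments there were 3 calls for MOF in PGK12.1, 2 for MOF with MSL1, 0 in WD44, 0 in E14 and 0 for both differences of WD44, in fits with few residual degrees of freedom. PGK12.1 experiment 3 alone gave 2 calls in PGK12.1 and 0 for WD44 minus PGK12.1.

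The array set as a block, chosen after seeing the array medians, gave 2 calls for WD44 minus PGK12.1 and 0 for WD44 minus E14, and 7 in WD44. With no filter on low values these differences gave 2 and 0 calls, and with a mean of at least 7 E14 gave 2 and WD44 minus E14 gave 6. Array weights gave 4 calls for MOF with MSL1, 2 in E14 and 2 for WD44 minus PGK12.1, and a trend in the prior gave 2 in E14 and 5 for WD44 minus E14. For WD44 minus E14, arrays centred on their medians gave 7 and quantile normalization 6. Cyclic loess moved no count by over 1.5 times. Centring moved the split of all calls in WD44 to 401 higher and 2220 lower, from 714 and 1299, and in PGK12.1 after MOF RNAi to 975 and 3051, from 1545 and 2271.

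With 1 array left out, the calls were 3 to 4 for MOF in PGK12.1, 3 in WD44, 0 in E14, 4 to 6 for NSL1, 0 to 4 for WD44 minus PGK12.1 and 0 to 1 for WD44 minus E14. A lone remaining pair is assumed to vary as the other experiments do. The cause of these changes was not tested beyond what the alternatives remove. The 2 or 3 experiments per knockdown limit the precision, and signal near the filter (Fgf5 in PGK12.1 and E14) limits what these arrays resolve.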
